A study of Mus musculus with 466 samples.

Results

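The liver transcripts described here are those of bile acid synthesis, conjugation and transport. The set has 10 named genes: Cyp7a1, Cyp8b1, Cyp27a1, Cyp7b1, Baat, Slc27a5, Abcb11, Slc10a1, Nr0b2 and Abcb4. A gene was taken as a member when a probe set carried its symbol in the array's probe-to-gene annotation, and the brightest of its probe sets over the liver arrays stood for it. By that rule 9 of the 10 genes had a probe set, 11 probe sets in all, out of 16643 gene symbols on the array. Cyp7a1, the rate-limiting enzyme of the classic pathway, had none under that symbol and was not analysed here. All 9 measured genes lay above the filter on low values.

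The animals were obese male C57BL/6J mice under caloric restriction, sampled after 0 to 60 days. RNA was hybridised to Affymetrix arrays, and the deposited values are intensities on a linear scale, quoted below without a unit. In liver 80 mice gave 1 array each. Groups of 12 mice stood at days 0, 7, 21 and 42, while day 3 had 11, day 14 had 10, day 60 had 6 and day 1 had 5. Most animals are labelled with an ID that begins with J or N, and the labels do not say what these letters mean. Day 1 held only J mice and day 60 only N mice, and 1 day 3 mouse had no letter. Every later day holds restricted mice only, so age and restriction cannot be told apart. All comparisons with day 0 share the same 12 mice. The labels give neither the diet, nor the animals' age, nor the hour of sampling. Replicates are separate animals.

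Bile acids are made from cholesterol in hepatocytes. In the classic route Cyp7a1 starts the pathway and Cyp8b1 directs intermediates toward cholic acid. The alternative route begins with oxidation of the side chain by Cyp27a1, which also acts in the classic route, and goes on with Cyp7b1. Slc27a5 can couple bile acids to coenzyme A, and Baat joins the activated acids to taurine or glycine. Abcb11 pumps bile acids into bile, and Slc10a1 takes them back up from portal blood. Abcb4 moves phosphatidylcholine into bile, where it shields the duct lining from bile acids. Nr0b2, also called SHP, is a repressor that the bile acid receptor FXR (Nr1h4) induces and that lowers transcription of the synthesis enzymes.

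Promoter sequences from RefSeq (build GRCm38.p6, 250 bases before to 50 after the transcript start) were held for 6 of the 10 genes. Shown are those of Cyp8b1 and Abcb4, the synthesis and transport genes whose levels fell, and of Nr0b2, the repressor. They lie at chr9:121916256-121916555 on the minus strand, chr5:8893471-8893770 on the plus strand and chr4:133553126-133553425 on the plus strand. Capitals mark motif matches, and the sequences run 5′ to 3′ on the gene's strand.
Cyp8b1: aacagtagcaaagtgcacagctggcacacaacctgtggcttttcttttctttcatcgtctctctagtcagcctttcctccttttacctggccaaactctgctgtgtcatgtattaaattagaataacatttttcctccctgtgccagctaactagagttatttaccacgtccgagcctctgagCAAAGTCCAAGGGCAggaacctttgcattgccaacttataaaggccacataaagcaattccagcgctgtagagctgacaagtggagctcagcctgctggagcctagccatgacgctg
Abcb4: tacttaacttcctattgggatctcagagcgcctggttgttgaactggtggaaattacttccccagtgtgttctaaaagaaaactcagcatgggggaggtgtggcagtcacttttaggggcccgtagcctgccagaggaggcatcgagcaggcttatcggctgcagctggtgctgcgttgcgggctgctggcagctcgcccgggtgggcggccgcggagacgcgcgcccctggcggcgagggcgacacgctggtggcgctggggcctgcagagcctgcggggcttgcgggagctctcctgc
Nr0b2: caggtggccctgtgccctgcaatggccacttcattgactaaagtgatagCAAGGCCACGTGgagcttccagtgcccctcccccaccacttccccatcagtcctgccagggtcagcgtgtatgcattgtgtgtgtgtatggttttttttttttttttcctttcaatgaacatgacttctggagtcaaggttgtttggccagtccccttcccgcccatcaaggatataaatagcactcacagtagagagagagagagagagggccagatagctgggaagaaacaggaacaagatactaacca
The letters searched, on both strands, were AGGTCA (the core site of nuclear receptors), CAAGGNCA (LRH-1, Nr5a2), the FXR inverted repeat (that core site and its reverse complement with 1 base between), CAAAGNCCA (HNF4A), CACGTG (clock E-box), TTATGTAA (D-box) and TCACNCCAC (sterol element). Of 32851 promoters of the same length these were held by 16.3%, 6.71%, 0.00913%, 1.98%, 7.15%, 0.938% and 1.24%. Counted from the start site, the Cyp8b1 window held an HNF4A match from position -67 and an LRH-1 match from position -60, which overlap in the 1 run of capitals. In the Nr0b2 window an LRH-1 match from position -201 overlapped an E-box from position -195. The Abcb4 window held none of the 7 motifs. Of the windows not shown, 1 of the 2 of Slc10a1 held an HNF4A match from position 24. The other Slc10a1 window and that of Abcb11 held a nuclear receptor core site, from positions -87 and -56. Neither gene passed the F test over all days given below. The matches describe letters only, and no factor's binding was measured.

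Each liver array had a median correlation to the other liver arrays between 0.996 and 0.998, over all probe sets. No RNA quality values were used. Alb, the main secreted protein of hepatocytes, had a median of 35.7 in liver against at most 0.789 in the other tissues, and the adipocyte hormone Adipoq was at 0.0461 in liver. At day 42, 0 of 9 hepatocyte, 0 of 9 cholangiocyte and 0 of 11 periportal markers tested differed, against 21.3% of all genes. Of 12 pericentral markers 2 were lower, near the 13.2% of all genes that were lower. Lists this short do not settle whether cell composition held. At day 60, where Cyp8b1 and Abcb4 were low, the summed level of the periportal markers ran from 152 to 161, against 160 to 167 at day 0. Of the 11 periportal markers 1 was called lower at day 60, near the 10.4% of all genes. The part of these markers in the results was not tested. In bulk tissue, fewer cells of a type and less RNA per cell cannot be told apart. The 13 skeletal muscle markers had a summed level of 1.72 to 1.93 in day 0 arrays, but reached 9.49 in 1 array of day 3, 19.4 in 1 of day 21 and 5.30 in 1 of day 42. None of the 13 passed the test at any day.

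Over all 8 days, 4 of the 9 measured bile acid genes changed (F test of limma over 13536 genes, Benjamini-Hochberg adjusted p under 0.05), against 28.5% of all genes tested. Cyp8b1 (limma adjusted p = 3.34e-07) and Abcb4 (adjusted p = 0.000197) were lower in restricted mice, with their lowest levels at days 42 and 60. Baat (adjusted p = 0.0169) was higher in restricted mice, and Slc27a5 (adjusted p = 0.0292) passed the F test without passing at any single day against day 0. Cyp27a1, Cyp7b1, Abcb11, Slc10a1 and Nr0b2 did not pass, with limma F test adjusted p-values of 0.274, 0.880, 0.353, 0.230 and 0.620.

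**Figure D1:**
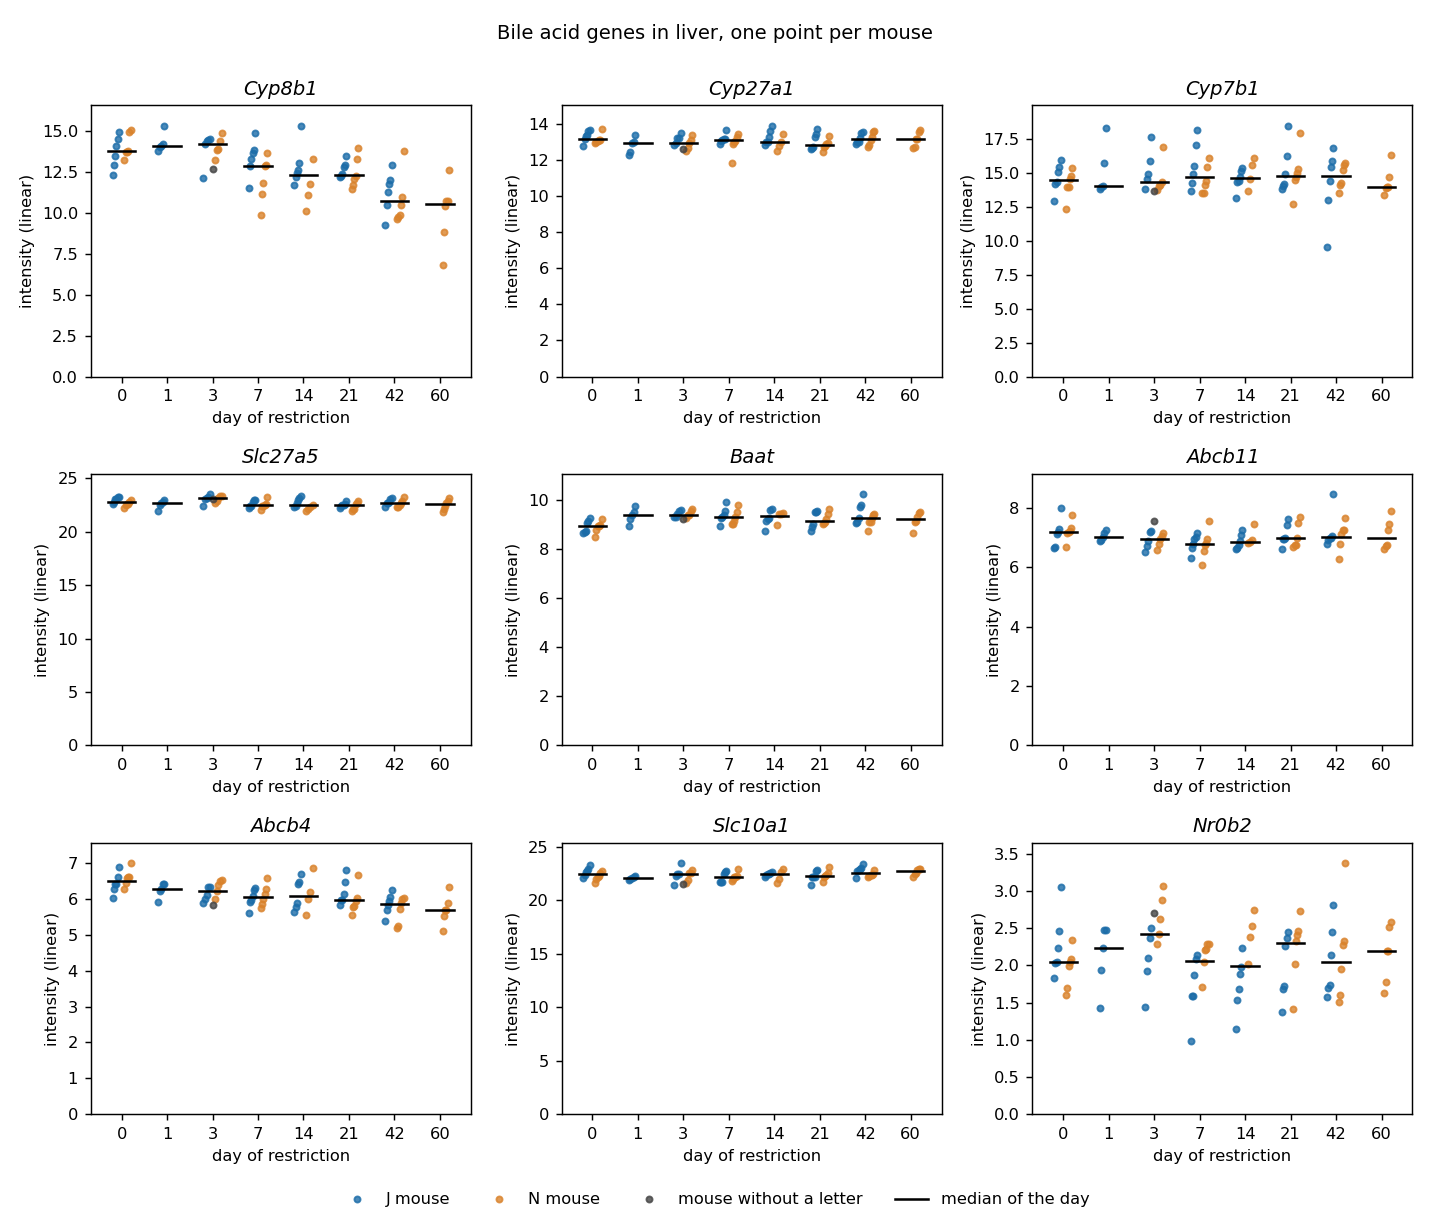
Intensity of each of the 9 measured bile acid genes (y axis, linear, 1 panel per gene, each with its own scale) in every liver mouse by day of restriction (x axis). Points are mice and bars are group medians. Cyp8b1 and Abcb4 lie lowest at days 42 and 60, where 10 of 12 and 5 of 6 mice are below every day 0 mouse for each gene, and Nr0b2 runs from 0.984 to 3.38 over all mice.

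Among the synthesis enzymes, Cyp8b1, the sterol hydroxylase that cholic acid needs, fell late in the course. In day 0 livers its intensity ran from 12.3 to 15.1 with a median of 13.8. The 5 day 1 mice read 15.3, 14.2, 13.8, 14.0 and 14.1, and the 11 day 3 mice ran from 12.1 to 14.9 with a median of 14.3. Both days overlapped day 0 in nearly all mice. The estimated change was 0.01 on the log2 scale at day 1 and at day 3, with a 95% interval of -0.11 to 0.14 at day 3.

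From day 7 to day 21 Cyp8b1 spread downward, with overlap with day 0. Its lowest, median and highest values were 9.89, 12.9 and 14.9 at day 7, then 10.1, 12.3 and 15.3 at day 14, and 11.5, 12.3 and 14.0 at day 21. At these days 4 of 12, 5 of 10 and 6 of 12 mice lay below every day 0 mouse. Below the day 0 mean of their letter were 9 of 12, 9 of 10 and 12 of 12 mice. The log2 change against day 0 was -0.14 at day 7 (limma adjusted p = 0.156) and -0.15 at day 21 (adjusted p = 0.123). At day 14 it was -0.18 (adjusted p = 0.0468), a call that was lost in 17 of the 22 fits that each left out 1 mouse, where the adjusted p reached 0.104.

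At day 42 Cyp8b1 ran from 9.30 to 13.8 with a median of 10.7, and 10 of 12 mice were below every day 0 mouse. The 6 day 60 mice read 6.81, 8.83, 10.4, 10.7, 10.7 and 12.6, and all but the highest lay under the lowest day 0 mouse. Cyp8b1 fell by 0.34 ± 0.06 on the log2 scale at day 42 (± the standard error of the limma fit throughout; adjusted p = 1.15e-05), with 12 of 12 mice below the day 0 mean of their letter. At day 60 it fell by 0.47 ± 0.08 (limma adjusted p = 3.57e-06; 6 of 6 mice lower), to 0.723 times the day 0 level.

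The day 42 loss of Cyp8b1 was present in each letter alone, with -0.29 in J mice (limma adjusted p = 0.00858) and -0.40 in N mice (adjusted p = 0.00761). Day 42 was also lower than day 3, a comparison that uses no day 0 mouse, by -0.35 ± 0.06 (limma adjusted p = 5.96e-05). Between day 42 and day 60 the estimate was -0.12 ± 0.08 (limma adjusted p = 0.640), so no order of the last 2 days is given. Leaving out any 1 mouse kept the day 42 change between -0.38 and -0.32 and the day 60 change between -0.54 and -0.36.

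Cyp27a1, the mitochondrial sterol 27-hydroxylase that acts in both routes, held a narrow range. Its median was 13.1 at day 0, between 12.8 and 13.1 until day 21, then 13.2 and 13.1 at days 42 and 60. At day 42 the 95% interval of its log2 change was -0.04 to 0.03. At day 1 the interval was -0.10 to -0.02 (limma adjusted p = 0.128), with 2 of 5 mice below every day 0 mouse, and without mouse J7 the adjusted p was 0.0426.

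Cyp7b1, the oxysterol 7α-hydroxylase that follows Cyp27a1 in the alternative route, had medians between 14.0 and 14.8 on all days. Single mice stood far from these medians, such as 18.3 and 18.5 at days 1 and 21 and 9.57 at day 42. The 95% interval of its log2 change was -0.12 to 0.11 at day 42 and -0.14 to 0.16 at day 60, wide enough to hold a change of the size seen for Baat. Its second probe set followed the first closely (r = 0.985 over 80 arrays, a description), and passed the test at none of the days.

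For conjugation, Baat, the transferase that joins bile acids to taurine or glycine, was slightly higher soon after restriction began. At day 0 it ran from 8.50 to 9.27 with a median of 8.95. The 5 day 1 mice read 9.42, 9.76, 9.51, 8.94 and 9.23, of which 3 lay above every day 0 mouse. At day 3 the lowest, median and highest values were 9.24, 9.39 and 9.64, and 9 of 11 mice were above the day 0 range.

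Baat rose by 0.08 ± 0.02 on the log2 scale at day 3 (limma adjusted p = 0.00569), where 10 of 10 mice with a letter were higher than the day 0 mean. Of the 9 genes Baat alone was called at day 3, where 4.09% of all genes were called and 1.18% were higher. At day 1 the estimate was 0.07 (limma adjusted p = 0.131), and 0 of the 9 genes were called against 3.63% of all genes, with 2 at an unadjusted p under 0.05.

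Later values of Baat stayed on the same side with more overlap. At day 7 it ran from 8.96 to 9.92 with a median of 9.31, and at day 14 from 8.74 to 9.64 with a median of 9.34. At day 42 it ran from 8.74 to 10.2 with a median of 9.27, and 6 of 12 mice were above the day 0 range. The log2 change was 0.07 at day 7 (limma adjusted p = 0.0105), 0.06 at day 14 (adjusted p = 0.0356) and 0.07 ± 0.02 at day 42 (adjusted p = 0.00420; 11 of 12 mice higher). The day 14 call was lost in 10 of the 22 fits that each left out 1 mouse. At day 21 the median was 9.16 and at day 60 it was 9.22, with changes of 0.05 at each of these days (limma adjusted p = 0.0748 and 0.116).

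Of 16 clock and clock output genes tested, 10, 9, 5 and 6 were called at days 3, 7, 14 and 42, where Baat was called. The shares over all genes were 4.09%, 8.41%, 12.2% and 21.3%. At days 1, 21 and 60, where Baat was not called, 7, 2 and 4 were, against 3.63%, 8.95% and 20% of all genes. Arntl, an activator of the circadian clock, rose by 0.95 ± 0.17 at day 3 and by 0.64 ± 0.16 at day 42 on the log2 scale (limma adjusted p = 0.000286 and 0.00203). Dbp and Nr1d1, clock genes that peak at another hour than Arntl, fell by 0.69 ± 0.16 and 0.70 ± 0.14 at day 3 (limma adjusted p = 0.00547 and 0.00160). With the levels of Arntl and Dbp as covariates, Baat had a limma adjusted p of 0.107, 0.121 and 0.0831 at days 3, 7 and 14, and of 0.0412 at day 42. Baat passed at none of the days when either letter was fitted by itself. Cyp8b1, with the same covariates, was lower at days 7, 14 and 21 as well, by -0.26, -0.28 and -0.25 (limma adjusted p = 0.0190, 0.00358 and 0.0101). The part of sampling hour in the values of Baat, Cyp8b1 and Abcb4 was not tested.

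Slc27a5, the ligase that activates bile acids before conjugation, varied by little relative to its level. Its medians were 22.8, 22.7 and 23.2 at the first 3 days sampled, 22.5 at days 7, 14 and 21, and 22.7 and 22.6 at the last days. The highest day was day 3, when values ran from 22.4 to 23.5 and 4 of 11 mice exceeded the day 0 range. Its log2 change was 0.02 at day 3 (limma adjusted p = 0.385) and -0.02 at day 21 (adjusted p = 0.141), and day 42 was at -0.02 against day 3 (adjusted p = 0.130).

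**Figure D2:**
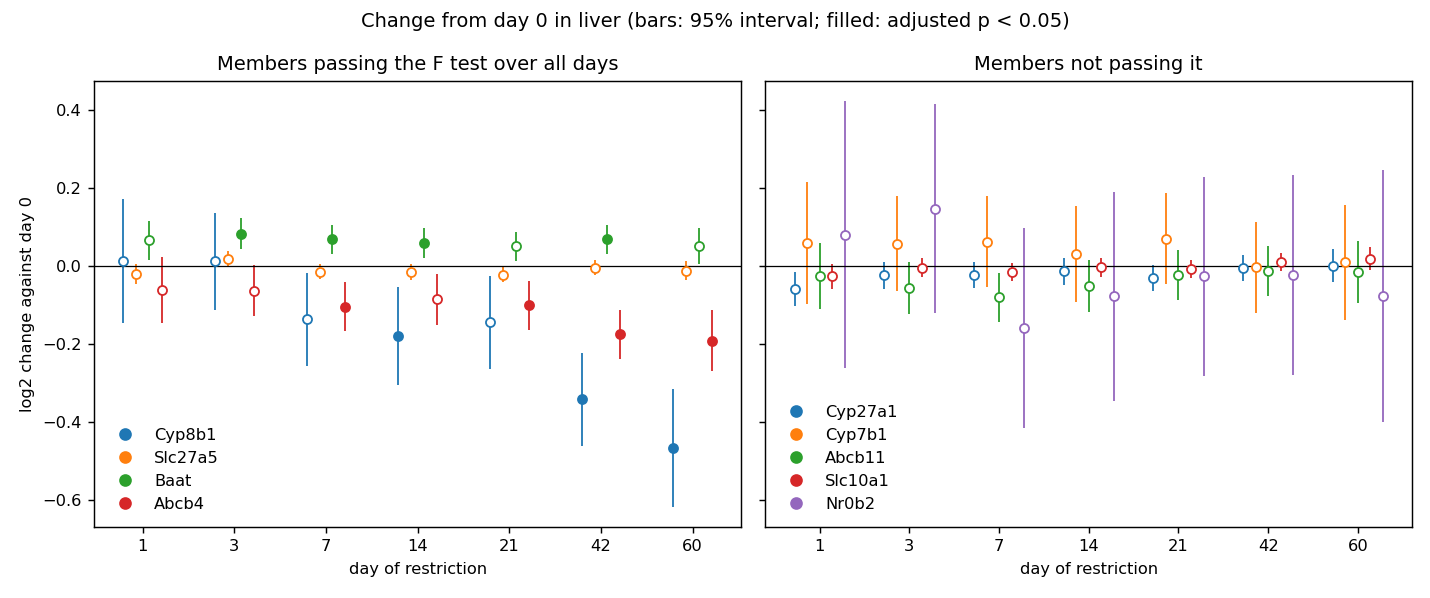
Log2 change against day 0 (y axis) with its 95% interval for each of the 9 bile acid genes at each later day (x axis), from the limma fit with the letter as a term. Filled points passed an adjusted p of 0.05. Cyp8b1 reaches -0.34 at day 42 and -0.47 at day 60, Abcb4 reaches -0.18 and -0.19, and Baat lies between 0.05 and 0.08.

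Of the transporters, Abcb4, the phosphatidylcholine floppase of the canalicular membrane, was lowest at the last 2 days. At day 0 it ran from 6.03 to 7.00 with a median of 6.51. The day 1 mice read 6.4, 6.28, 5.91, 6.23 and 6.4, inside that range for all but the lowest. At day 7 the values ran from 5.61 to 6.59 with a median of 6.04, and 6 of 12 mice were below the day 0 range.

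The log2 change of Abcb4 was -0.06 at days 1 and 3 (limma adjusted p = 0.504 and 0.311). It fell by 0.10 at day 7 (limma adjusted p = 0.0233) and by 0.10 at day 21 (adjusted p = 0.0290), and at day 14 it was -0.09 (adjusted p = 0.0758). Day 7 thus had 2 of the 9 genes called, Baat higher and Abcb4 lower, against 8.41% of all genes (2.73% higher and 5.68% lower). Day 14 had 2, Baat higher and Cyp8b1 lower, against 12.2% of all genes (4.23% higher and 7.98% lower). Day 21 had Abcb4 alone, against 8.95% of all genes and 5.47% in its direction. The day 7 call was lost without day 0 mouse N74 or day 7 mouse J44. It was also lost with the levels of Arntl and Dbp as covariates, where Cyp8b1 was the 1 gene of the 9 called. That of day 21 was lost without any 1 of 6 mice: J43 and N74 of day 0, and J10, N3, N11 and N99 of day 21.

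At day 42 Abcb4 ran from 5.19 to 6.24 with a median of 5.87, and 10 of 12 mice lay below every day 0 mouse. The 6 day 60 mice ran from 5.11 to 6.33 with a median of 5.69, with 5 below the day 0 range. Abcb4 fell by 0.18 ± 0.03 at day 42 (limma adjusted p = 1.50e-05; 12 of 12 mice lower) and by 0.19 ± 0.04 at day 60 (adjusted p = 0.000182; 6 of 6 mice lower).

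The day 42 change of Abcb4 was -0.14 in J mice alone (limma adjusted p = 0.0406) and -0.22 in N mice alone (adjusted p = 0.00210). Against day 3 it was -0.11 at day 42 (limma adjusted p = 0.0148). Mice with more Abcb4 than their group had less Alb (r = -0.62 over residuals of 79 mice, a description). With Alb as a covariate the changes of Abcb4 were -0.13 at day 42 and -0.18 at day 60 (limma adjusted p = 6.41e-05 and 1.03e-05).

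At day 42, then, 3 of the 9 genes were called: Cyp8b1 and Abcb4 lower and Baat higher. Among all genes 21.3% were called at that day, 8.08% higher and 13.2% lower. At day 60, 2 of the 9 were called, Cyp8b1 and Abcb4 lower, against 20% of all genes and 10.4% in that direction. The same pair was lower at day 42 than at day 3, where 12.9% of all genes were called and 6.91% were lower. By contrast, 0 of the 9 differed between day 60 and day 42, where limma called 1 gene in all (0.00739%) and 0 of the 9 had an unadjusted p under 0.05. The median log2 change of the 9 genes was -0.0053 at day 42 and -0.0117 at day 60, against -0.0119 and -0.0033 over all genes.

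Erythrocyte markers were lower at day 42 as well. Of the 5 listed markers, 2 could be tested, Alas2 and Slc4a1. Their summed level ran from 3.65 to 4.23 at day 0, from 1.38 to 3.96 at day 42 and from 2.29 to 3.60 at day 60. Both were lower at day 42, by -0.45 ± 0.10 and -0.20 ± 0.06 on the log2 scale (limma adjusted p = 0.000399 and 0.00740). At day 60 Alas2 was at -0.38 ± 0.12 (limma adjusted p = 0.0214) and Slc4a1 at -0.05 ± 0.07 (adjusted p = 0.702), and at day 21 Slc4a1 was at -0.19 ± 0.06 (adjusted p = 0.0243). With the muscle and erythrocyte sums as covariates, Cyp8b1 was at -0.28 at day 42 and -0.42 at day 60 (limma adjusted p = 0.00374 and 0.000141). Abcb4 was then at -0.16 at day 42 (limma adjusted p = 0.00104), and its difference between day 42 and day 3 was no longer called (adjusted p = 0.139). Of 8 adipocyte markers tested, 3 were lower and none higher at each of days 14, 21, 42 and 60. Among all genes 7.98%, 5.47%, 13.2% and 10.4% were lower at these days. The median log2 change of the 8 markers was 0.01 at day 42, against -0.01 over all genes. The summed level of the 10 measured adipocyte markers, in which bright genes weigh most, had a median of 16.5 at day 0. That median was 15.5 at day 1 and 14.8 at day 42. Of 11 Kupffer cell and macrophage markers tested, 4 were lower and 0 higher at day 42 than at day 3, where 6.91% of all genes were lower. Against day 0, 0 of the 11 were called at day 42 and 0 at day 60, where 21.3% and 20% of all genes were called. The part of these markers in the results was not tested.

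Abcb11, the bile salt export pump, had medians of 7.19 at day 0 and from 6.79 to 7.03 afterwards. Its lowest day was day 7, with values from 6.06 to 7.55 and a log2 interval of -0.14 to -0.02 (limma adjusted p = 0.101). At day 42 the interval was -0.08 to 0.05.

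Slc10a1, the sodium-dependent transporter that takes bile acids up from blood, had the tightest estimates beside Slc27a5. Its medians lay between 22.1 and 22.7 on all days, and at day 42 the interval of its log2 change was -0.01 to 0.03. A second probe set of Slc10a1 followed the first less closely (r = 0.644 over 80 arrays) and passed the test at none of the days.

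Nr0b2, the repressor, had the largest standard errors of the 9 genes on the log2 scale, 0.13 at day 42 against at most 0.06 for the others. It ran from 1.60 to 3.05 at day 0 with a median of 2.05, from 0.984 to 2.29 at day 7 with a median of 2.06, and from 1.5 to 3.38 at day 42 with a median of 2.04. The day 1 mice read 2.47, 1.43, 2.24, 1.93 and 2.47. The ranges overlapped at every day. Its log2 change at day 42 had an interval of -0.28 to 0.23, and at day 60 of -0.40 to 0.25, so that a change as large as that of Abcb4 was within the spread.

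Between N and J mice 0 of the 9 were called by limma, against 14.8% of all genes, and Cyp8b1 had an adjusted p of 0.272. In a fit of whether the day 42 change differs between letters, limma called 0 genes in all (0%), with 617 genes and 0 of the 9 at an unadjusted p under 0.05.

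Other genes of the same pathway were read from 3 lists. Of 14 other synthesis and conjugation enzymes tested, 6 were lower and 2 higher at day 42, where 13.2% of all genes were lower and 8.08% higher. At day 60, 4 were lower and 2 higher, against 20% of all genes called and 10.4% lower. Hsd3b7, which acts right after the first hydroxylation, ran from 7.35 to 8.60 at day 0 and from 6.34 to 8.21 at day 42, and fell by 0.16 ± 0.03 (limma adjusted p = 4.75e-05; 11 of 12 mice lower). At day 60 it ran from 5.93 to 7.39 and fell by 0.22 ± 0.04 (limma adjusted p = 1.14e-05).

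Hsd17b4, a peroxisomal enzyme of side chain shortening, ran from 8.51 to 9.01 at day 0 and from 7.78 to 8.53 at day 42, with a fall of 0.08 ± 0.01 in 12 of 12 mice (limma adjusted p = 4.72e-06). Acox2, an oxidase of the same step, fell by 0.07 ± 0.02 at day 42 and by 0.14 ± 0.03 at day 60 (limma adjusted p = 0.0215 and 0.000613). Acot8, a peroxisomal thioesterase, fell by 0.12 ± 0.03 at day 42 (limma adjusted p = 0.000273).

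Cyp2c70, which makes the muricholic acids of mice, went the other way. It ran from 13.6 to 16.7 at day 0 and from 15.4 to 18.4 at day 42, and rose by 0.16 ± 0.04 in 12 of 12 mice (limma adjusted p = 0.00103). The other riser was Cyp39a1, an oxysterol hydroxylase named here because its change was the largest of the list, a choice made after its values were seen. It ran from 2.03 to 2.78 at day 0 and from 2.04 to 5.51 at day 42, and rose by 0.44 ± 0.10 (limma adjusted p = 0.000741; 11 of 12 mice higher).

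Of 14 other bile and sterol transporters tested, 3 were lower and 1 higher at day 42, against 13.2% and 8.08% of all genes, and 5 were lower and 1 higher at day 60, against 20% of all genes called in either direction. Atp8b1, a phospholipid flippase of the canalicular membrane, ran from 2.89 to 3.97 at day 0 and from 3.46 to 4.10 at day 42. It rose by 0.20 ± 0.03 in 12 of 12 mice (limma adjusted p = 1.47e-07), and was already up by 0.15 ± 0.04 at day 1 (adjusted p = 0.0192). Atp8b1 and Abcb4 both handle phospholipid at the canalicular membrane, and their changes had opposite signs.

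Abcg8, a partner in the sterol exporter, fell by 0.31 ± 0.08 at day 1, by 0.23 ± 0.06 at day 42 and by 0.39 ± 0.08 at day 60 (limma adjusted p = 0.0238, 0.00498 and 0.000127). Its intensity was 0.655 to 0.764 at day 0 and 0.443 to 0.626 at day 60, where the medians of the liver arrays ran from 0.125 to 0.132. The other partner, Abcg5, fell by 0.19 ± 0.05 at day 1 and by 0.15 ± 0.05 at day 60 (limma adjusted p = 0.0304 and 0.0289), and was at -0.03 ± 0.04 at day 42 (adjusted p = 0.592). Slco2b1, an organic anion uptake carrier, fell by 0.12 ± 0.03 at day 1 and by 0.08 ± 0.02 at day 42 (limma adjusted p = 0.00208 and 0.00170). Abcg2 and Slc10a2 passed the F test, but at day 42 had changes of -0.08 ± 0.03 and -0.17 ± 0.08 (limma adjusted p = 0.0791 and 0.105).

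Of 17 regulators tested, 3 were lower and 1 higher at day 42, and 2 were lower and 1 higher at day 60. These counts are near the shares over all genes, of which 21.3% were called at day 42 and 20% at day 60. Ppara, a fatty acid receptor that also acts on bile acid enzymes, ran from 7.43 to 8.32 at day 0 and from 5.83 to 7.85 at day 42, and fell by 0.20 ± 0.03 in 12 of 12 mice (limma adjusted p = 4.42e-06). Fgfr4, the receptor through which the gut hormone Fgf15 lowers bile acid synthesis, ran from 0.816 to 0.962 at day 0 and from 0.920 to 1.10 at day 42. It rose by 0.15 ± 0.03 in 12 of 12 mice (limma adjusted p = 0.000230). Its co-receptor Klb was at -0.01 ± 0.05 (limma adjusted p = 0.924). Nr1i2, the xenobiotic receptor PXR, fell by 0.12 ± 0.03 (limma adjusted p = 0.00681). The bile acid receptor Nr1h4 was at -0.02 ± 0.03 and Nr5a2, whose motif is in the Cyp8b1 and Nr0b2 windows above, at 0.02 ± 0.03 (limma adjusted p = 0.653 and 0.577).

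**Figure D3:**
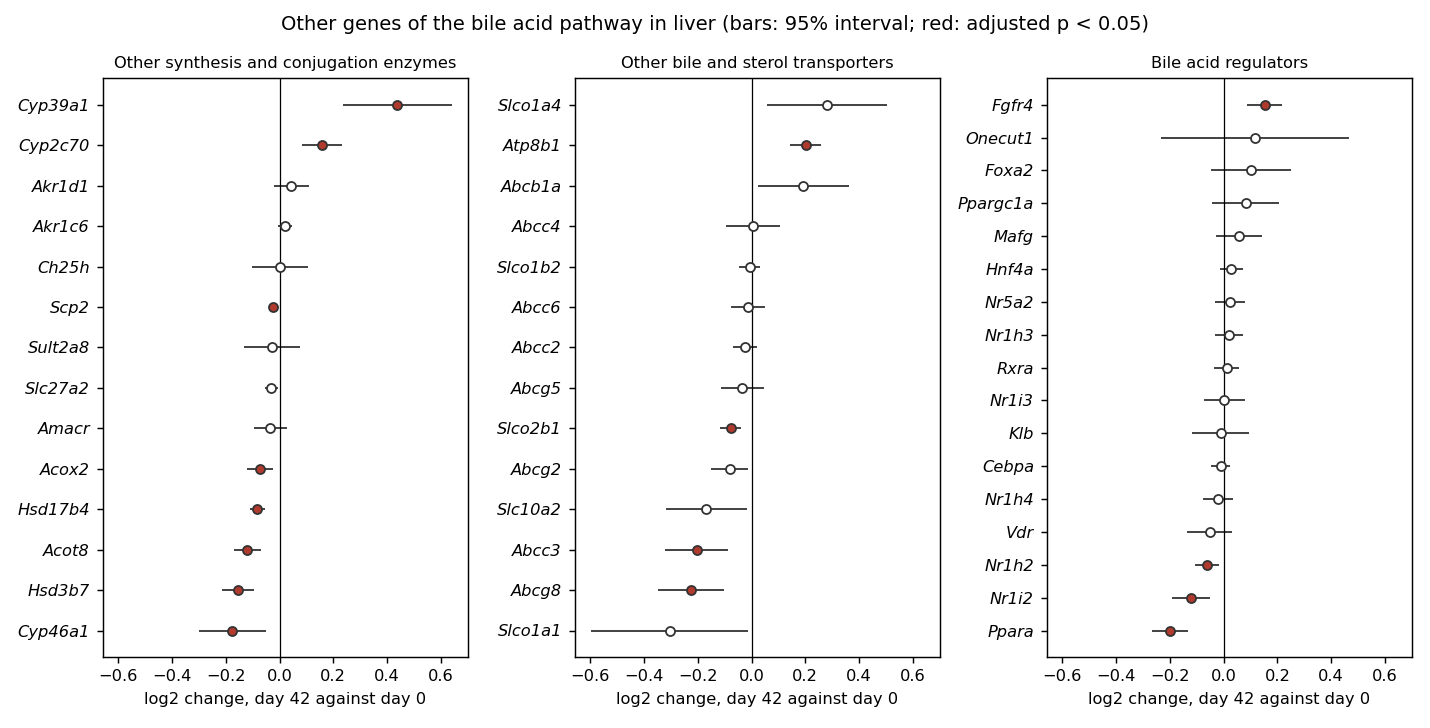
Log2 change in liver at day 42 against day 0 (x axis) with its 95% interval for the tested genes of the 3 further pathway lists (y axis, 1 panel per list). Red points passed an adjusted p of 0.05. Cyp39a1 has the highest called estimate, 0.44, and Atp8b1 and Fgfr4 are the called risers of their lists.

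After day and letter were removed, some of the 9 genes varied together from mouse to mouse. Of 36 pairs over 79 mice, 5 had a Benjamini-Hochberg adjusted p under 0.05 (two-sided permutation test of Pearson's r, 100000 permutations). Cyp27a1 and Slc27a5 varied in the same direction, with r = 0.455 (permutation p = 2e-05, adjusted p = 0.00054) and Spearman's rho = 0.50. The correlation was 0.349 in J mice and 0.547 in N mice, and 0.468 without the 2 mice farthest from the median of Cyp27a1.

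Cyp7b1 and Slc10a1 ran against each other, with r = -0.455 (permutation p = 3e-05, adjusted p = 0.00054) and rho = -0.386. That pair was at -0.624 in J mice and -0.191 in N mice, and at -0.370 without the 2 mice farthest from the median of Cyp7b1. Cyp8b1 ran against Abcb11, with r = -0.407 (permutation p = 0.00021, adjusted p = 0.00252) and rho = -0.397. The values were -0.25 in J mice, -0.512 in N mice and -0.422 without the 2 mice farthest from the median of Abcb11. The other two pairs were weaker: r = 0.315 for Abcb4 with Slc27a5 (permutation, adjusted p = 0.0401) and r = -0.307 for Cyp7b1 with Nr0b2 (adjusted p = 0.0444, and 0.0733 for Spearman's rho). Cyp8b1 and Nr0b2, an enzyme and its repressor, had r = 0.02 over the same mice. Cyp8b1 and Abcb4, both lower at days 42 and 60, had r = 0.16.

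**Figure D4:**
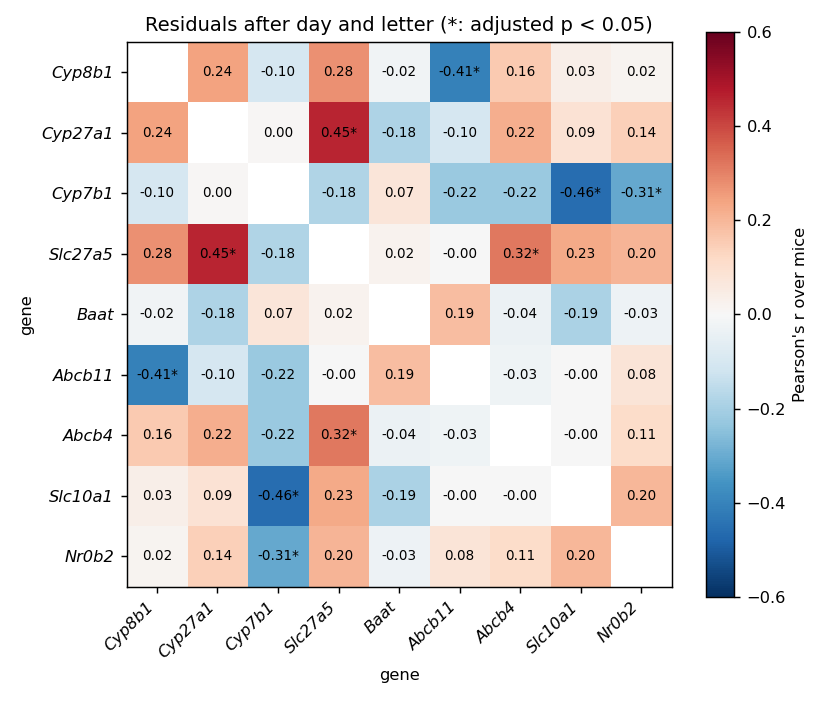
Pearson's r between each pair of the 9 bile acid genes over 79 mice (colour and printed value), of log2 values after day and letter were removed, with genes on both axes. A star marks a permutation p under 0.05 after adjustment over 36 pairs. The 5 starred pairs include Cyp27a1 with Slc27a5 at 0.45 and Cyp7b1 with Slc10a1 at -0.46.

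All 9 genes had by far their highest level in liver, which is a description, since the arrays' value distributions differ between tissues. Cyp8b1 had a median of 12.9 over 80 liver arrays and from 0.0254 to 0.0524 in the other 5 tissues. Slc10a1 was at 22.3 in liver and at most at 0.387 elsewhere. Cyp27a1 was the most widely spread, with 13 in liver, from 1.88 to 2.5 in the adipose depots and 0.304 in hypothalamus. Cyp7b1 had 14.5 in liver and 1.11 in hypothalamus, above its 0.151 to 0.310 in the depots.

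**Figure D5:**
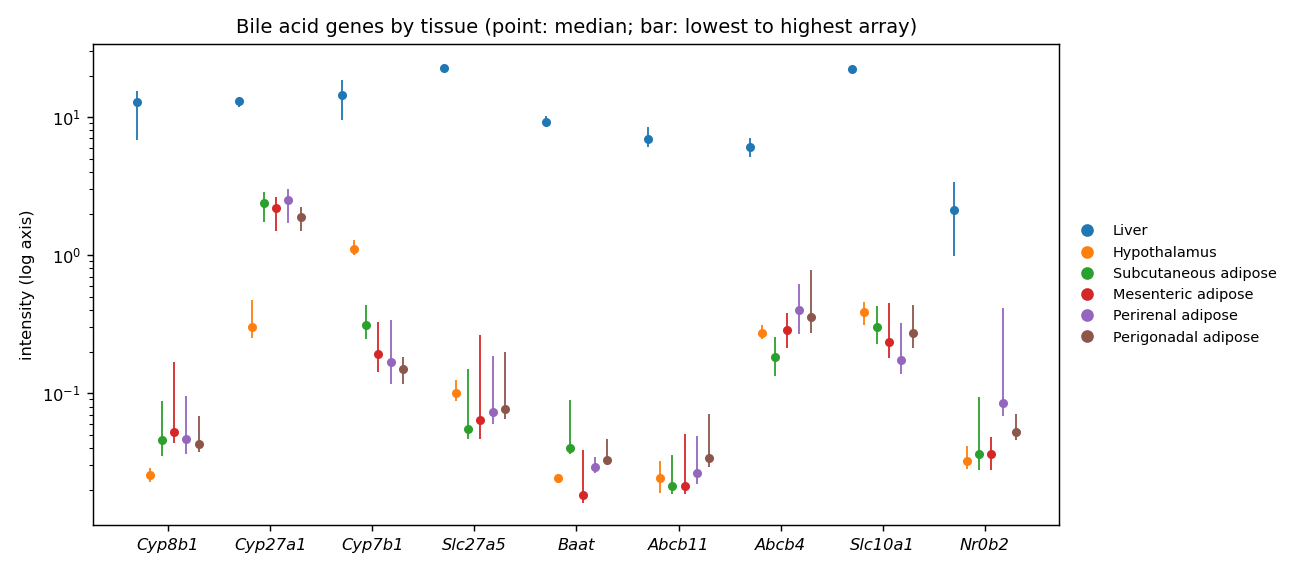
Intensity of the 9 bile acid genes (x axis) on a log scale (y axis) in each of the 6 tissues (colour), with the median as a point and the lowest to highest array as a line. Liver is the highest tissue for every gene, and Cyp27a1 has medians of 1.88 to 2.5 in the adipose depots.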

How the data were processed

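Total RNA of liver was labelled with biotin and read on Affymetrix arrays, per the labels. The deposited values are linear intensities, 1 per probe set and array, with a mean per array between 0.962 and 0.999. The authors' summary and normalisation of the intensity data are not given in the sources used here. Precision is limited by how many arrays each day has.

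The array's 32640 probe sets comprise 25508 with 1 symbol and 7132 with none. Symbols were updated through RefSeq's GRCm38.p6 gene table (2830 changed, and 16601 of 16643 symbols were in it). Per gene the probe set with the highest liver mean was kept. Genes with a mean above percentile 25 of all probe set means were tested. Log2 intensities, with no offset, were fitted in limma 3.58.1 (R 4.3.3; trend and robust options) with day as a factor and the letter as an additive term. The day 3 mouse without a letter is in the ranges given but not in the fit, which held 79 arrays. P-values are two-sided and were adjusted by Benjamini-Hochberg over 13536 genes. A call means an adjusted p under 0.05. Counts of mice higher or lower refer to mice with a letter, against the day 0 mean of that letter. The fit was tested on simulated data.

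All 10 members are named whatever they show. From each other pathway list the up to 5 called genes with the smallest F test p are named, plus Nr1h4, Fgfr4, Klb, Nr5a2, Abcg5, Abcg8 and Cyp2c70, and the clock genes Arntl, Dbp and Nr1d1. Cyp39a1 falls outside this rule and was added after its values were seen. The members and lists were chosen with earlier results of these data known. Alternatives tried were another filter, none, an offset, quantile normalization, array weights, no trend or robust option, no letter term, each letter alone, marker covariates, all probe sets averaged and each mouse left out. Added after the data were seen were the second probe set and covariates for the clock genes and Alb. Arrays of the other 5 tissues serve only for tissue levels.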

Additional observations from a re-analysis of the deposited data

How the results depend on the processing

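No paired analysis was possible because each animal gave 1 liver array, so no animal ID is shared between days. Cyp8b1 and Abcb4 were called lower on day 42 under all settings tried, letters fitted singly and single omissions included, and on day 60 in every fit that held day 60 mice. The count of the 9 genes called on day 42 was 2 in either letter alone and 3 otherwise, and no called change reversed its direction. The intermediate days were less stable. In J mice alone the count was 1 over all days, 0 on days 3, 7, 14 and 21, and 1 for day 42 against day 3, where limma called 395, 1, 1, 83, 30 and 89 genes in all. In N mice alone it was 2, 0 on the same days, and 1, with 1876, 76, 432, 576, 367 and 701 genes. With both letters 3855, 553, 1139, 1652, 1211 and 1741 genes were called. Day 42 had 705 genes in J and 1579 in N mice, against 2885. Each such fit holds fewer mice. With Arntl and Dbp as covariates the count was 0 on day 3 and 1 on day 7, with 192 and 627 genes, 1 on day 14 and 2 on day 21. With Alb it was 0 on day 21. On day 14 it was 1 without the letter term, without the filter, after quantile normalization and with muscle and erythrocyte covariates. The last also gave 1 for day 42 against day 3 (533 genes), and 1315 and 1780 genes on days 42 and 60, against 2885 and 2711. Those covariates gave 3 on day 7. Array weights gave 2 on day 21 and 3 on days 14 and 60 and for day 42 against day 3, with 1199 genes on day 3. Over all days the count was 3 after quantile normalization, without the trend and robust options and with Arntl and Dbp. Between days 60 and 42, 393 genes were called with array weights, 82 without the letter term, 12 with muscle and erythrocyte covariates, 15 with Arntl and Dbp, 7 with Alb, 0 after quantile normalization or in N mice alone, and 1 in the others. The cause was not tested.

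Leaving out 1 mouse at a time gave counts of 3 to 4 over all days, 0 to 1 on day 1, 1 on day 3, 1 to 2 on day 7, 0 to 3 on day 14, 0 to 2 on day 21, 3 on day 42, 2 to 3 on day 60, 2 for day 42 against day 3 and 0 for day 60 against day 42. Of the omissions, that of day 1 mouse J7 gave Cyp27a1 as the 1 gene.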

Other observations

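The genes whose liver level followed Cyp8b1 most closely from mouse to mouse, with day and letter removed, were Ten1 (r = 0.57), Elmod3 (r = 0.53), Niban2 (r = 0.53), Gamt (r = 0.51) and 4833411C07Rik (r = 0.51). The lowest correlations with Cyp8b1 were those of Selenos (r = -0.55), Cltc (r = -0.50) and Polr3k (r = -0.49). Nr0b2 ran closest to Depp1 (r = 0.61), Epha2 (r = 0.55), Gdf15 (r = 0.54), Tgif1 (r = 0.53) and Frmd4b (r = 0.51), and its lowest values were with Hhex (r = -0.54), Phlda1 (r = -0.49) and Myc (r = -0.48). These are descriptions over 79 mice that share a platform and a normalisation, picked as extremes among 13536 genes, with no test.

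Acute phase genes, which liver makes in inflammation, were higher for 10 of 16 tested at day 1, 5 at day 3 and 3 at day 7, where 3.63%, 4.09% and 8.41% of all genes were called. None was called at days 14, 21 and 60, and at day 42 1 was higher and 1 lower, against 21.3% of all genes. Between letters, 8 of the 16 were lower in N than in J mice, against 14.8% of all genes called. Day 1 holds only J mice, so its counts rest on the additive letter term. Baat was called higher at days 3, 7, 14 and 42, and the part of inflammation in its values was not tested.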
